A study of Homo sapiens with 6 samples.

Results

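The genes described here are 8 of the 25702 genes in the expression table: CFLAR, FADD, CASP8, APAF1, CASP9, CASP2, CASP6 and XIAP. They are caspases, an adaptor and a scaffold that activate them, and inhibitors, chosen by name with earlier results of these data known. Each was matched to the table by its Entrez gene identifier. RNA was sequenced from RMS13, a human cell line established from a rhabdomyosarcoma and labelled as skeletal muscle, grown in RPMI medium with fetal bovine serum. In the group called siGLI1 the cells had received a small interfering RNA (siRNA) that targets GLI1, and in the group called siNT2 a non-targeting siRNA, and the knockdown lasted 72 h. Each group had 3 libraries, and all 6 came from siRNA-treated cells of this single line. GLI1 encodes the transcription factor at the end of the Hedgehog pathway.

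Caspases are proteases that dismantle a cell during apoptosis, and they are made as inactive precursors. In the death receptor route, a ligand-bound receptor recruits the adaptor FADD, which gathers caspase 8, and CFLAR (the protein is also called c-FLIP) takes caspase 8 binding places in that complex and controls its activation. In the mitochondrial route, released cytochrome c joins APAF1 into the apoptosome, which activates caspase 9, and XIAP binds and blocks caspases downstream of both routes.

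After the GLI1 knockdown CFLAR fell to 28.2% of its siNT2 level and CASP9 rose to 188%, while FADD, CASP8, APAF1, CASP2, CASP6 and XIAP did not pass the test. All 8 genes were tested, so 2 of 8 (25%) were called, against 15.2% of the 15622 genes tested. By direction, 1 of 8 was called higher against 7.21% of all genes, and 1 of 8 was called lower against 8.0%. The median log2 fold change of the 8 genes was 0.19, and that of all tested genes was -0.01. A call means an adjusted p under 0.05 with limma on log2(deposited value + 1), and every adjusted p below comes from that fit unless another is named. Log2 fold changes are differences of mean log2(value + 1), with siNT2 subtracted from siGLI1.

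GLI1, the targeted gene, was at 11962, 17837 and 12774 normalised read counts in siNT2 replicates 1 to 3 and at 579.9, 905.8 and 1274 in siGLI1, a log2 fold change of -4.0 (adjusted p = 0.000425). Libraries held between 13673977 and 18947614 reads assigned to genes, and a count of 0 allows up to 2.39 to 3.29 units, for counting error only. The muscle markers MYOD1 (14203 to 22293) and MYOG were high in all 6 libraries, and MYF5 and PAX7 stayed at or under 1.08. Of 6 muscle markers tested 2 were called higher in siGLI1, DES (log2 fold change 0.97, adjusted p = 0.0153) and CHRNA1 (0.62, adjusted p = 0.0112), and 3 with the GC trend removed, MYOG included; their part in the results below was not tested. Of other cell types, 5 of 6 blood, 4 of 5 epithelial and 3 of 4 endothelial markers were too low to test. The others were CD14 (11.2 to 34.6), EPCAM (26.7 to 59.0) and PECAM1, an endothelial marker at 5.58 to 14.2 in siNT2 and 81.8 to 90.9 in siGLI1 (log2 fold change 2.96, adjusted p = 0.00226), whose part in the results below was not tested. SiNT2 replicate 2 and siGLI1 replicate 3 stood apart in GC content: across genes, how far a library lay from its group mean had a rank correlation with GC content of 0.70 and 0.75 in these libraries and -0.70 to -0.31 in the other 4. Results are therefore also given from a fit with the GC trend of each library removed, and without both libraries where that changes a call. The trend was fitted to deviations from the mean of all 6 libraries. It thus also takes out any difference between the groups that follows GC content, and the p-values of that fit do not allow for the trend fitting. The labels do not say whether replicates were separate cultures, so the p-values cover no more than the variation among the libraries sequenced, part of which can be technical.

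CFLAR had normalised read counts of 197.7, 196.8 and 204.9 in siNT2 and of 60.5, 60.3 and 48.4 in siGLI1. Every siGLI1 library lay below every siNT2 library, and the groups were far apart compared with their spread. The counts behind these values were 180, 194 and 257 reads in siNT2 and 56, 59 and 49 in siGLI1, so CFLAR rested on fewer reads than any other of the 8 genes in siGLI1. The means were 199.8 ± 4.49 in siNT2 and 56.4 ± 6.93 in siGLI1 (SD, n = 3). On the log2 scale this is -1.81, with a standard error of 0.17, a 95% confidence interval (CI) of -2.21 to -1.42 and a limma adjusted p of 0.00108. The fit with the GC trend removed gave -1.90 (95% CI -2.22 to -1.58), and over all 18 alternatives tried it lay between -1.90 and -1.70 and stayed past the threshold. In bulk RNA, fewer cells expressing a gene and less of its RNA per cell cannot be told apart.

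FADD, the adaptor that links death receptors to caspase 8, was at 401.9, 394.5 and 369.2 in siNT2 and at 440.6, 469.2 and 494.8 in siGLI1. The groups did not overlap, and the gap between the highest siNT2 and the lowest siGLI1 library was wider than the SD of either group. The log2 fold change was 0.27 (95% CI -0.04 to 0.57, adjusted p = 0.208). With the GC trend removed it was 0.44 (95% CI 0.14 to 0.74, adjusted p = 0.0325), past the threshold. Library weights also put it past the threshold (0.24, adjusted p = 0.0259). Without both siNT2 replicate 2 and siGLI1 replicate 3 it was 0.24 (adjusted p = 0.245).

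CASP8, the initiator caspase of the death receptor route, was at 163.6, 146.0 and 249.6 in siNT2 and at 270.0, 251.5 and 229.1 in siGLI1. SiNT2 replicate 3 lay inside the siGLI1 range while the other two siNT2 libraries lay below it, so the groups overlapped through 1 library. The log2 fold change was 0.46 (95% CI -0.06 to 0.97, adjusted p = 0.201), and 0.69 without siNT2 replicate 3 (adjusted p = 0.065). It was 0.41 with the GC trend removed (adjusted p = 0.0926), and of the alternatives tried, library weights alone put CASP8 past the threshold (0.53, adjusted p = 0.00701).

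**Figure D1:**
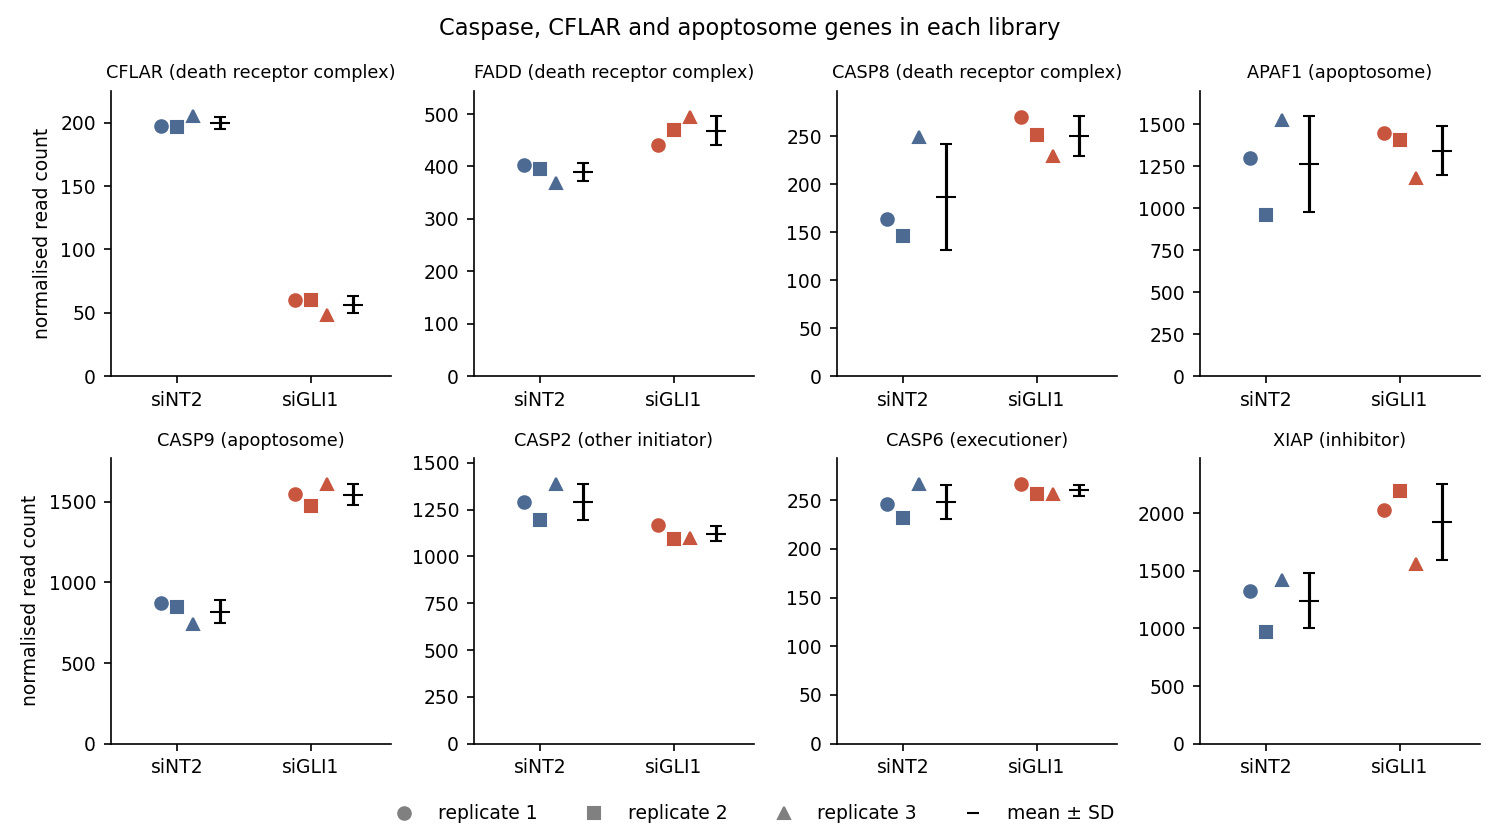
Normalised read counts (vertical axis, from 0) of the 8 genes in each library, with the mean and SD of the 3 libraries of each group beside the points. CFLAR and CASP9 separate by far more than their spread, CASP8, APAF1 and CASP6 overlap between groups, and XIAP has its lowest value of each group in siNT2 replicate 2 and siGLI1 replicate 3.

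The balance of CFLAR to CASP8 was computed within each library, where the scaling of a library cancels. The ratio of their normalised read counts was 1.21, 1.35 and 0.821 in siNT2 and 0.224, 0.24 and 0.211 in siGLI1. All 3 siNT2 ratios were above all 3 siGLI1 ratios, and the siGLI1 ratios lay close together. The means were 1.13 ± 0.273 and 0.225 ± 0.0143 (SD, n = 3), a log2 difference of -2.27 (two-sided exact permutation p = 0.1, 0.15 adjusted over 3 ratios). With 3 libraries against 3 this test cannot go below 0.10. For each of the 3 ratios, the log2 difference and its test used values with 1 added, where the scaling cancels only nearly. Each log2 difference is the log2 fold change of the first gene minus that of the second, so it is not a separate result. The ratio is one of unscaled read counts of transcripts of different length, so its level does not give the number of CFLAR per CASP8 transcripts.

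CFLAR and CASP8 are neighbours on chromosome 2, with CASP10 between them. CASP10, which encodes another initiator caspase of death receptor complexes, was at 2.39 to 5.49 in siNT2 and 3.24 to 7.90 in siGLI1, too low to be tested. In gene order along the chromosome, HYCC2 and NDUFB3 stand before CFLAR, and FLACC1 and TRAK2 stand after CASP8. None of the 3 tested neighbours was called: the log2 differences were 0.60 for HYCC2 (adjusted p = 0.205), 0.01 for NDUFB3 (adjusted p = 0.97) and -0.17 for TRAK2 (adjusted p = 0.62). FLACC1 was too low to be tested. CFLAR was the one called gene in this stretch of 7.

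The 3' untranslated region (3' UTR) of CFLAR holds the 7-base string GCACCTC, which was picked in earlier work on these libraries because genes that carry it were lower in siGLI1, so its presence here is no independent evidence. The sources used here do not give the siRNA sequences. Of 12 complete coding transcripts, CFLAR-201 (a protein of 480 residues, 3' UTR of 12714 bases) and CFLAR-206 (a protein of 250 residues, 3' UTR of 3450 bases) hold 1 copy each, and the others hold 0. The site in CFLAR-206 is shown with the string in capitals, read 5′ to 3′ on the plus strand of GRCh38, from GENCODE transcripts.
CFLAR-206, string at chr2:201138745-201138751: cttgaccttctGCACCTCactggcctggaa

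Of the 8 genes, CFLAR was the one with the string on the transcript strand of any coding transcript searched. Among 13164 tested genes with an annotated 3' UTR 10.2% carry it, among 1034 genes with a 3' UTR of at least 5000 bases 26.2%, and among 135 genes with at least 10000 bases 40.7%. The table has 1 value per gene, so which CFLAR transcripts the RMS13 cells made was not analysed here.

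The promoter of CFLAR was searched because GLI proteins bind DNA at a known consensus, GACCACCCA. Both strands of the 250 bases before each annotated start were read, for 17 starts of the 8 genes in RefSeq (GRCh38.p14). The exact consensus was in 0 of the 17 windows and in 0.199% of all 35116 windows. With at most 1 mismatch it was in 3 windows of 2 genes, CFLAR with 2 windows and CASP2 with 1, against 5.81% of all windows. The window at chr2:201118466-201118715 (plus strand) held 2 such matches, GACCACGCA and TACCACCCA, which 0.285% of all windows do. It is printed with the matches in capitals.
CFLAR promoter window: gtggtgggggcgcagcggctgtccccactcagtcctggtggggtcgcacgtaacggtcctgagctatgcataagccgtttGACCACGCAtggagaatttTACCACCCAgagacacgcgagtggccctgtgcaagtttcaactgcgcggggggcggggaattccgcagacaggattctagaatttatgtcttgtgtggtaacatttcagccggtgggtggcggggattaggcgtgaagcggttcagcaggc

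A match of letters is a description of the sequence, not evidence of binding, and the expression table holds no binding data. The 4 CFLAR windows differed in base composition, from 37.2% to 62% GC, and the window with 2 matches had 58.8%.

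CASP9, the initiator caspase of the apoptosome, was at 869.7, 848.9 and 740.8 in siNT2 and at 1549, 1476 and 1609 in siGLI1. Every siGLI1 library exceeded every siNT2 library by more than the spread within either group. The means were 819.8 ± 69.2 and 1545 ± 66.4 (SD, n = 3), a 1.88-fold rise. The log2 difference was 0.92, with a standard error of 0.13, a 95% CI of 0.62 to 1.21 and a limma adjusted p of 0.00453. Over the 18 alternatives it lay between 0.81 and 1.02 with adjusted p up to 0.0393, and the highest value, 1.02 (adjusted p = 0.000166), came from the fit with the GC trend removed.

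The genes beside CASP9 on chromosome 1 were CELA2A and CELA2B on one side and DNAJC16 and AGMAT on the other. All 4 had positive log2 fold changes and none was called: 0.53 for CELA2A (adjusted p = 0.0915), 0.08 for CELA2B (adjusted p = 0.809), 0.39 for DNAJC16 (adjusted p = 0.157) and 0.96 for AGMAT (adjusted p = 0.107). AGMAT was low, at a mean of 6.66 in siNT2 and 14.3 in siGLI1. In the fit with the GC trend removed, CELA2A was at 0.69 (adjusted p = 0.0283) and DNAJC16 at 0.30 (adjusted p = 0.038), both past the threshold.

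**Figure D2:**
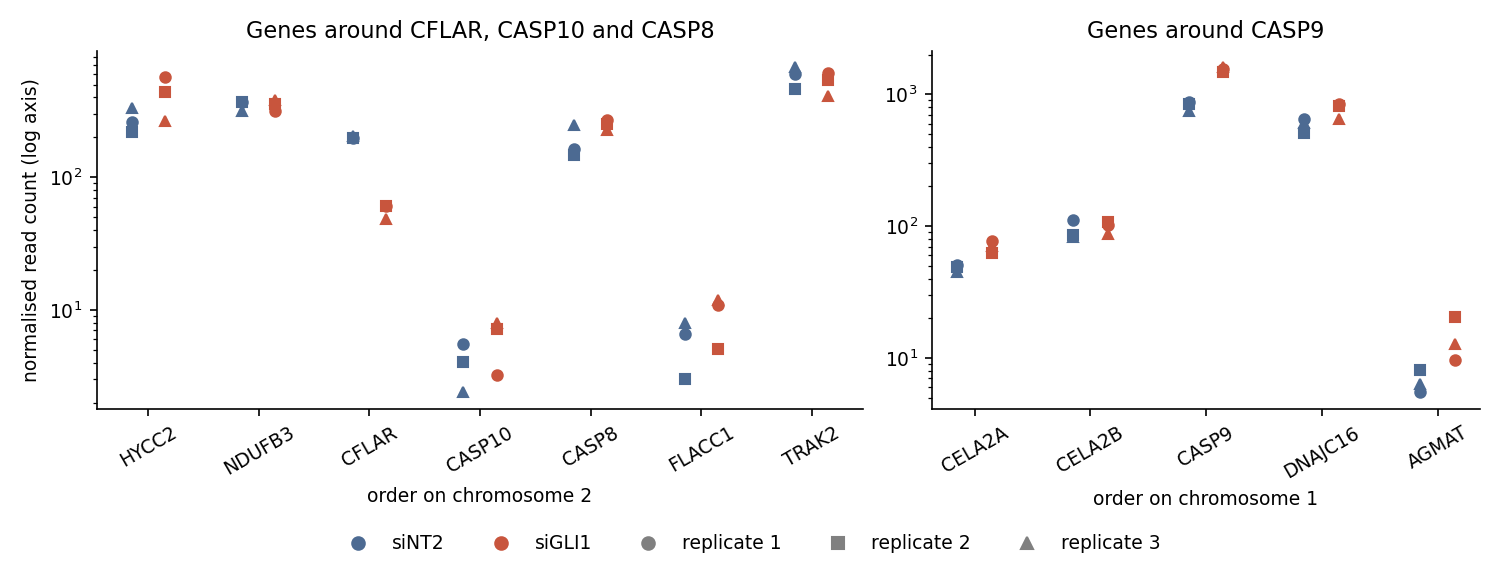
Normalised read counts (vertical log axis) of the genes around CFLAR, CASP10 and CASP8 on chromosome 2 and around CASP9 on chromosome 1, in genome order from left to right, with 1 point per library. CFLAR is the gene of its row with clearly lower siGLI1 points, and CASP9 separates more widely than DNAJC16 beside it.

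Both CASP9 promoter windows were rich in the GC box GGGCGG, the string bound by Sp1-type factors. Each of the 2 windows held 8 copies, counting both strands and counting copies that share bases with the next one. Of all 35116 windows 42.6% held any and 0.584% held 8 or more. The 2 windows had 77.6% and 71.6% GC, and those shares are over windows of any GC content, not windows matched for it. This string was chosen after the sequences were seen. The window at chr1:15524216-15524465 is printed as read on the minus strand, the strand of the gene, with the copies in capitals.
CASP9 promoter window: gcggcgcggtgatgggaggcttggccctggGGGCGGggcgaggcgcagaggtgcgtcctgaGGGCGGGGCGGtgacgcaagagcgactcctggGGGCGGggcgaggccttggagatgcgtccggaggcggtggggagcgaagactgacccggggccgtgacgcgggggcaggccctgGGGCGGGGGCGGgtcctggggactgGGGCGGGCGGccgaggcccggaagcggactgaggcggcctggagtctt

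APAF1, the scaffold of the apoptosome, was at 1300, 960.5 and 1525 in siNT2 and at 1445, 1405 and 1178 in siGLI1. The groups overlapped, and the lowest value of each group was in siNT2 replicate 2 and siGLI1 replicate 3, the libraries that stood apart in GC content. The log2 fold change was 0.11 (95% CI -0.34 to 0.56, adjusted p = 0.734), it was -0.07 without siNT2 replicate 2, and it was 0.03 with the GC trend removed (95% CI -0.23 to 0.29). No direction can be given for APAF1. APAF1 overlaps ANKS1B in the annotation, but ANKS1B was at 4.06 to 29.2.

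The ratio of APAF1 to CASP9 within each library was 1.49, 1.13 and 2.06 in siNT2 and 0.933, 0.952 and 0.732 in siGLI1. The groups did not overlap, with means of 1.56 ± 0.467 and 0.872 ± 0.122 (SD, n = 3). The log2 difference was -0.81 (two-sided exact permutation p = 0.1, 0.15 adjusted over 3 ratios). APAF1, the scaffold, thus lay above CASP9 in each siNT2 library and below it in each siGLI1 library, in read counts not corrected for length.

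XIAP, which binds and blocks caspase 9 and the executioner caspases, was at 1325, 968.6 and 1423 in siNT2 and at 2024, 2194 and 1558 in siGLI1. The groups did not overlap, with a narrow gap between siNT2 replicate 3 and siGLI1 replicate 3. The log2 fold change was 0.64 (95% CI 0.18 to 1.1, adjusted p = 0.0681), short of the threshold. Its coding transcript had 39.0% GC, the lowest of the 8 genes, and its lowest values in each group were again in siNT2 replicate 2 and siGLI1 replicate 3. It was 0.45 with the GC trend removed (95% CI 0.22 to 0.68, adjusted p = 0.00948), and without both of those libraries 0.62 (adjusted p = 0.00432). It was also past the threshold with DESeq2 (adjusted p = 0.0252), without siGLI1 replicate 3 alone (0.78, adjusted p = 0.0283) and with library weights (0.71, adjusted p = 0.000274), so the call depended on the fit.

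The ratio of CASP9 to XIAP was 0.656, 0.876 and 0.52 in siNT2 and 0.765, 0.673 and 1.03 in siGLI1. The groups overlapped, and the log2 difference was 0.28 (two-sided exact permutation p = 0.4, also 0.4 adjusted over 3 ratios). With 3 libraries against 3 this test could not have reached 0.05 for any ratio.

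**Figure D3:**
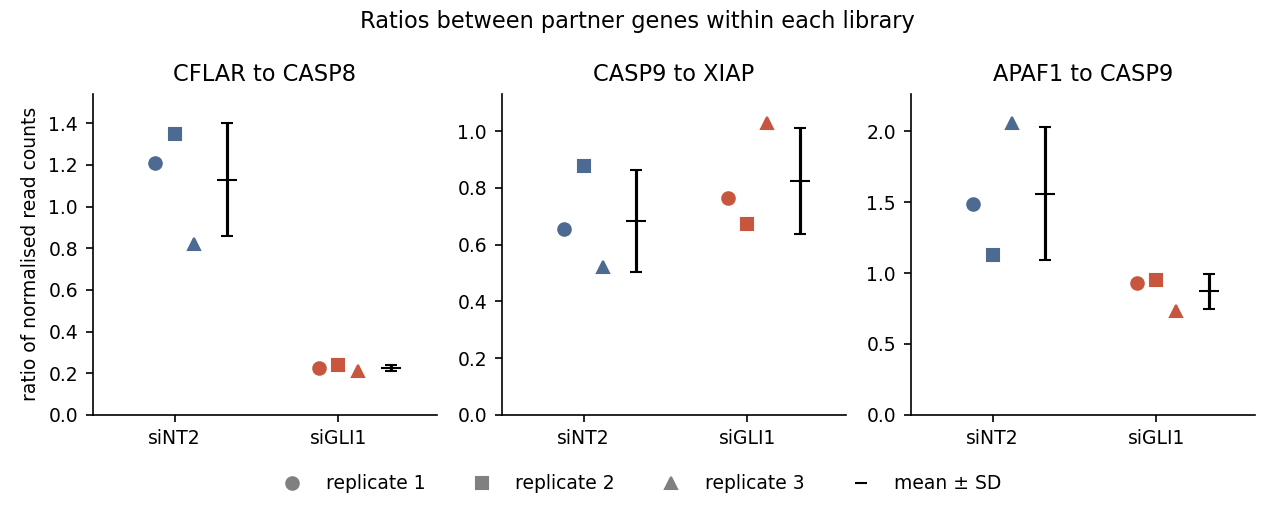
Ratios of normalised read counts between partner genes within each library (vertical axes, from 0), with the mean and SD of the 3 libraries of each group. CFLAR to CASP8 and APAF1 to CASP9 separate the groups, with siGLI1 lower, while CASP9 to XIAP overlaps.

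CASP2, an initiator caspase that works outside both routes on its own platform, was at 1290, 1197 and 1387 in siNT2 and at 1166, 1095 and 1100 in siGLI1. The groups did not overlap, yet the closest libraries, siNT2 replicate 2 and siGLI1 replicate 1, were near each other. The log2 fold change was -0.20 (95% CI -0.49 to 0.08, adjusted p = 0.305), and -0.21 with the GC trend removed (adjusted p = 0.078). Of the alternatives tried, library weights alone put CASP2 past the threshold (-0.24, adjusted p = 0.017).

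CASP6, an executioner caspase that cleaves nuclear lamins, was at 246.0, 232.3 and 266.3 in siNT2 and at 266.7, 256.6 and 256.8 in siGLI1. SiGLI1 replicate 1 lay just above the siNT2 range, the other siGLI1 values lay inside it, and the spread within siGLI1 was small. The log2 fold change was 0.07 (95% CI -0.25 to 0.39, adjusted p = 0.768), and it was -0.0022 with the GC trend removed (95% CI -0.26 to 0.25, adjusted p = 0.991). CASP6 overlaps MCUB in the annotation, which was at 579.1 to 582.1 in siNT2 and 676.8 to 787.3 in siGLI1, and the sources used here do not say whether counting used strand.

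**Figure D4:**
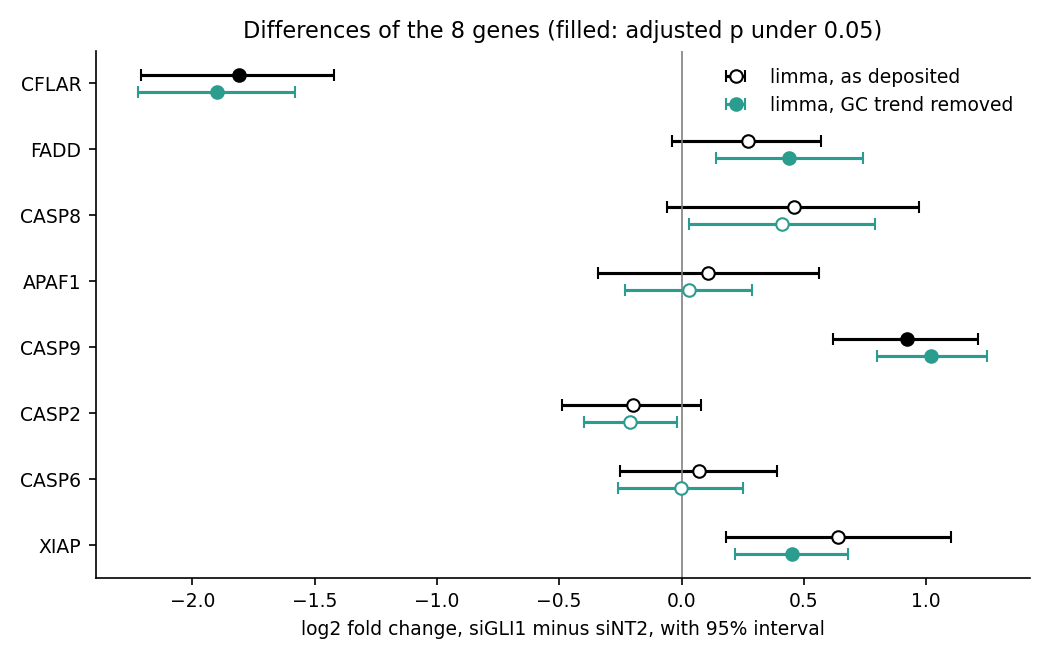
Log2 fold changes of the 8 genes (horizontal axis, siGLI1 minus siNT2) with 95% intervals, from the values as deposited (black) and with the GC trend of each library removed (green), filled where the adjusted p was under 0.05. CFLAR lies far below 0 and CASP9 above it in both fits, and FADD and XIAP are filled in the GC fit alone.

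Of the 8 genes, 6 had positive and 2 negative log2 fold changes. The groups did not overlap for 5 of the 8 (CFLAR, FADD, CASP9, CASP2 and XIAP), against 36.2% of all tested genes. With the GC trend removed 4 of 8 were called, 3 higher (CASP9, XIAP and FADD) and 1 lower (CFLAR), against 33.8% of 14438 genes in that fit. More of all genes were called there as well, so the rise in the count of members is to be read beside that share.

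Levels between genes were compared per kilobase of the longest complete coding transcript. In siNT2 the order was CASP2 at 306 ± 22.5, FADD at 211 ± 9.31, CASP9 at 184 ± 15.5, APAF1 at 179 ± 40.3, CASP6 at 160 ± 11.1, XIAP at 144 ± 27.9, CASP8 at 63.6 ± 18.9 and CFLAR at 13.6 ± 0.306 normalised counts per kilobase (SD, n = 3). The ranges of 1 SD around the mean overlapped between CASP9 and APAF1, between APAF1 and CASP6 and between CASP6 and XIAP, and between no other neighbours in that order. In siGLI1 CASP9 headed the order at 346 ± 14.9, ahead of CASP2 at 265 ± 9.42 and FADD at 254 ± 14.7, and CFLAR was last at 3.84 ± 0.472. The order depends on the transcript taken. By the shortest coding transcript of each gene, APAF1 at 2060 and CASP2 at 1820 stood above CASP9 at 1140 in siGLI1. CFLAR, by its shortest coding transcript of 693 bases rather than the longest of 14672 would be at 288 in siNT2 and 81.4 in siGLI1.

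The genes whose profile over the 6 libraries was most like that of each called gene were found by Pearson correlation of log2 values, over 12657 genes, as a description over 6 libraries that fall into 2 groups. For CFLAR they were, from the highest correlation down, ZNF70, MTX2 (r = 0.9978) and FAM210B (0.9971), which fell by 0.78, 0.55 and 1.09 on the log2 scale. For CASP9 they included RGS3 (r = 0.9994) and KCNC4 (0.9972), which rose by 0.64 and 1.40. A correlation over 0.99 was reached by 51 genes for CFLAR and by 41 for CASP9.

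The wider pathway was described with 7 lists of 97 genes, of which 96 were in the table and 68 high enough to test. Of those 68, 6 were called higher and 2 lower, against 7.21% and 8.0% of all genes.

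Among 16 death ligands and receptors 6 were tested, 1 was called higher and 1 lower. In the GC fit 2 of these 6 genes were called higher and 1 lower, where 33.8% of all genes were called. TNFRSF1B, the TNF receptor without a death domain, was at 292.1, 356.0 and 228.9 in siNT2 and at 76.7, 77.7 and 108.6 in siGLI1, and fell by 1.72 on the log2 scale (95% CI -2.25 to -1.20, adjusted p = 0.00355). TNFRSF12A, the receptor of the ligand TWEAK, was at 407.4, 471.6 and 495.2 and at 815.4, 961.0 and 1166, and rose by 1.09 (adjusted p = 0.00709). Both calls held whichever of the 6 libraries was left out. The TRAIL receptor gene TNFRSF10B, whose product recruits FADD, had a difference of -0.01 (95% CI -0.34 to 0.33), and the 10 untested genes of the list, FAS among them, did not exceed 6.59.

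Among 17 tested adaptors and regulators of the receptor complexes, CRADD was called higher and none lower. The GC fit called 4 of these 17 genes higher and 3 lower, where 33.8% of all genes were called. CRADD, an adaptor that joins caspase 2 to PIDD1, went from 55.2 ± 5.61 to 108.2 ± 8.19 (SD, n = 3), a rise of 0.96 (adjusted p = 0.0124) that was lost without siGLI1 replicate 2 (adjusted p = 0.0769). Its partner PIDD1 was at 1783, 3809 and 1922 in siNT2 and at 603.7, 1338 and 1952 in siGLI1, with overlap between the groups, and its log2 fold change of -1.02 was not called (adjusted p = 0.169); with the GC trend removed it was at -0.73 and was called (adjusted p = 0.0374).

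None of the 13 tested mitochondrial release factors and apoptosome cofactors was called, with log2 fold changes between -0.34 and 0.28 and adjusted p of 0.184 and above. CYCS, which encodes the cytochrome c that binds APAF1, overlapped between groups at 2319 to 2482 in siNT2 and 1915 to 2517 in siGLI1. DIABLO, whose product relieves the block by XIAP, was at 946.3 ± 59.2 and 776.2 ± 67.8 (SD, n = 3), a log2 fold change of -0.29 (95% CI -0.60 to 0.02, adjusted p = 0.184). The GC fit called 2 of these 13 genes higher and 0 lower, where 33.8% of all genes were called.

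Of 8 tested genes of the inhibitor-of-apoptosis family and its partners, SEPTIN4 was called higher. The GC fit called 2 of these 8 genes higher and 1 lower, where 33.8% of all genes were called. SEPTIN4, one of whose products binds XIAP, was low, at 30.8, 16.2 and 16.0 in siNT2 and 42.1, 50.1 and 59.3 in siGLI1 (log2 fold change 1.28, adjusted p = 0.0308), and leaving out a single library ended the call in 4 of 6 fits. BIRC5 (survivin) was at 1479 ± 191 and 2157 ± 346 (SD, n = 3), and its log2 fold change of 0.54 was not called (adjusted p = 0.0652), while with the GC trend removed it was at 0.58 and was called (adjusted p = 0.00716).

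Among 15 tested caspase substrates and demolition factors, LMNA and PANX1 were called higher and PARP1 lower. LMNA, the lamin A/C gene whose protein caspase 6 cuts, was at 2568, 3412 and 2344 in siNT2 and at 6008, 7469 and 10074 in siGLI1, a rise of 1.49 (adjusted p = 0.00584). PARP1, a DNA repair enzyme cut by executioner caspases, was at 8889, 8133 and 7828 and at 4818, 4746 and 4224, a fall of 0.85 on the log2 scale (log2 fold change -0.85, adjusted p = 0.00463). The call of PANX1, a membrane channel opened by caspase cutting (log2 fold change 1.03, adjusted p = 0.0298), ended in 4 of 6 fits with a single library left out. The GC fit called 3 genes of this list higher and 6 lower, where 33.8% of all genes were called. Cutting of these proteins was not measured.

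Of 7 tested inflammasome and pyroptosis genes, the GC fit called 2 higher and 2 lower, where 33.8% of all genes were called. In the main fit NLRC4, a sensor that recruits caspase 1, was called higher. It went from 34.6 ± 3.95 to 78.2 ± 15.3 (SD, n = 3; log2 fold change 1.14, adjusted p = 0.014), and leaving out a single library ended the call in 2 of 6 fits. Of the 96 pathway genes in the table beside the 8 members, 4 carried the string GCACCTC in a coding transcript's 3' UTR: DIABLO, FAIM2, STK4 and TNFAIP3. Among all tested genes with an annotated 3' UTR the share was 10.2%. The 96 include genes too low to test, so the 2 sets are not alike. None of the 4 was called in the main fit, and their log2 fold changes were -0.29, 1.17, -0.38 and -0.17 in that order. In the GC fit FAIM2 was called higher (1.33, adjusted p = 0.0221) and STK4 lower (-0.48, adjusted p = 0.00209). FAIM2 was low, at a mean of 9.46 in siNT2 and 22.7 in siGLI1.

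**Figure D5:**
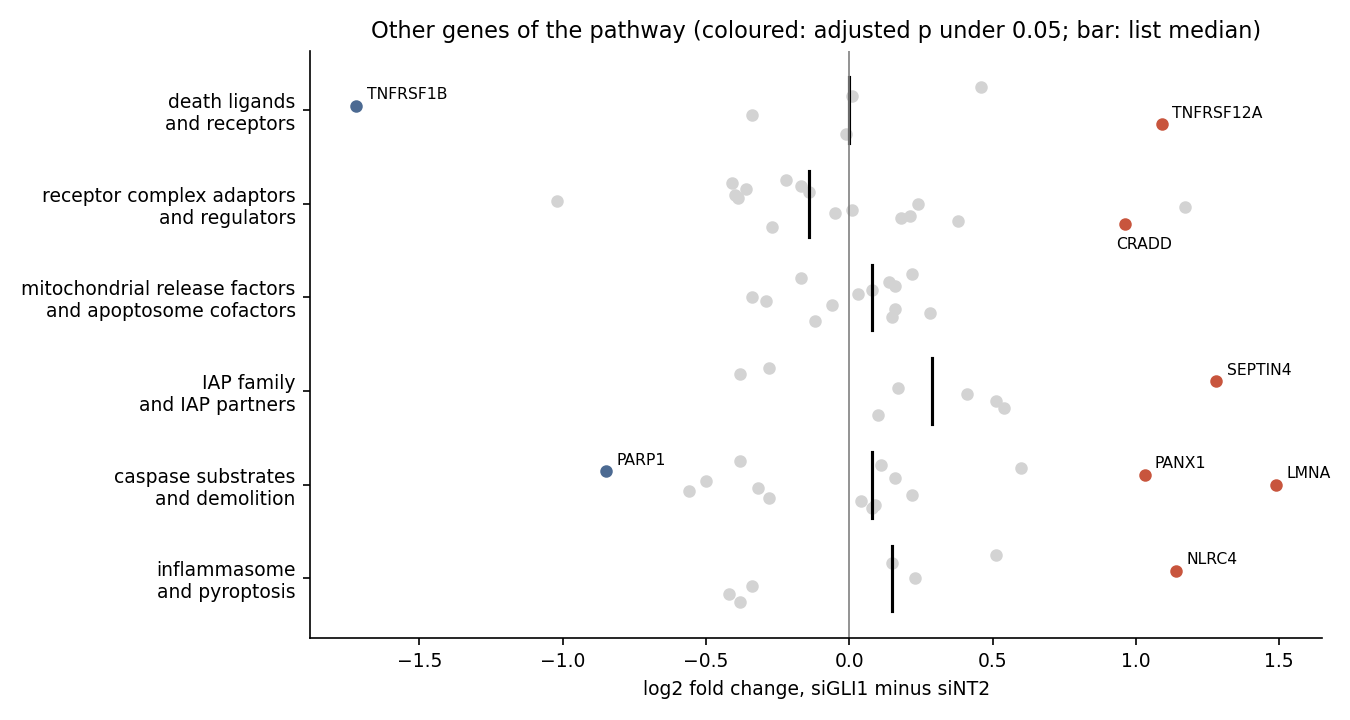
Log2 fold changes (horizontal axis, siGLI1 minus siNT2) of the tested genes in 6 lists around the caspases, with 1 point per gene, coloured where the adjusted p was under 0.05, and a bar at each list's median. Most points lie near 0, and the 8 labelled genes are the called ones.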

How the data were processed

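RNA of 6 RMS13 libraries (3 siNT2, 3 siGLI1) was sequenced. Per the submitters' processing notes, the build was hg19 and the tools were DESeq2 2.11.40.6, Subread 1.6.4 with featureCounts, Bowtie2 2.3.3.1, Trim Galore 0.4.5 and bcl2fastq; the annotation and the strand setting were not given in the sources used here. The authors deposited signal values: gene read counts divided by 1 size factor per library, not by length. Dividing by the smallest step gave whole reads for 100.0% of values (tolerance 0.01), and symbols were found for 23696 of the 25702 Entrez identifiers (92.2%).

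The main test was limma 3.58.1 (R 4.3.3) on log2(value + 1), two-sided, for 15622 genes with a mean of at least 10, with Benjamini-Hochberg adjustment over all of them. Ratios were compared by exact permutation (scipy 1.17.1). Alternatives were pseudocounts of 0.5 and 8, no filter, a mean of at least 50, edgeR 4.0.16 and DESeq2 1.42.0 on recovered reads, TMM scaling, library weights, removal of a loess trend on GC content (14438 genes with a value), the replicate number as a block, each library left out, and 2 libraries left out together. The main limma test was also run on simulated counts with known changes and no GC trend. GC content, lengths and 3' UTRs came from GENCODE 29 (GRCh38), and gene order and promoter windows from RefSeq (GRCh38.p14); no hg19 sequence was used.

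The members and lists were chosen with earlier results of these data known. Named genes were the 8 members, GLI1, up to 4 called genes per list by p, the 3 genes most like each called member (mean of at least 50) and neighbours in gene order. TNFRSF10B, CYCS, DIABLO, PIDD1, BIRC5 and the markers were named for their roles after their values were seen. Some items of the lists, gene matches and sequence sites are not reported here. Reads without molecular identifiers are not independent molecules, so the limits on a count of 0 cover counting error only.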

Additional observations from a re-analysis of the deposited data

How the results depend on the processing

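CFLAR and CASP9 were past the threshold in all 18 alternatives. Genes called higher and lower (1127 and 1249) numbered 2494 and 2385 with the GC correction, 4059 and 4215 with library weights, and 2236 and 2356 without both siNT2 replicate 2 and siGLI1 replicate 3, an alternative chosen after seeing the data. Leaving out 1 library gave 283 to 1562 higher and 358 to 1705 lower. Members called higher (1) numbered 2 with DESeq2, 3 with the GC correction, 4 with library weights, 2 without both libraries and 1 to 2 with 1 library left out; members called lower (1) numbered 2 with library weights and 1 in each fit with 1 library left out. With 1 library left out APAF1 lay between -0.07 (siNT2 replicate 2 absent) and 0.26, and CASP6 was at -0.0022 with the GC correction. With the replicate number as a block, 462 genes were called higher and 508 lower; with the block and the GC correction 1971 and 1889 were, members called higher were 2, and CASP6 was at -0.0022. The block ended the calls of CRADD (adjusted p = 0.0562), SEPTIN4 (0.0813) and PANX1 (0.0758), and with the GC correction that of FADD (0.0615). Same-numbered libraries share the start of a code in the labels, which do not say what it marks. Their deviations from the group means correlated at 0.494, -0.109 and -0.614, while those of siNT2 replicate 2 and siGLI1 replicate 3 correlated at 0.755. The GC trend was still in these values, so the correlations cannot decide whether the numbers mark pairs. The main fit did not use the numbers as pairs. Library weights ran from 0.29 to 6.14, so that fit leans on few libraries. CFLAR rested on 49 to 257 reads per library, and 3 libraries per group limit the ratio tests.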
